A study of Rattus norvegicus with 12 samples.

Results

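Whole blood of rats was profiled after amiodarone or its vehicle, and the 6 blood arrays described here are part of a series of 12. They were chosen by their titles, which name blood and the treatment, and comprise 3 arrays of amiodarone pools and 3 arrays of vehicle pools. The other 6 arrays hold left ventricle RNA from the same design and serve below for 1 comparison. The male Sprague-Dawley (CD) rats, which carried no labelled allele, were dosed by mouth for 10 days, either with amiodarone at 300 mg/kg per day or with 1% methylcellulose, the vehicle. The labels give an age of 10 weeks at the start and of 11 weeks in the sample record. Blood was drawn into PAXgene tubes, which lyse the cells and preserve RNA, and each array carried the Cy3-labelled RNA of 1 pool. The labels do not list which or how many rats made up a pool, so the p-values below measure the spread between pools, which may be partly technical. Pools 1 and 2 of both groups shared a slide, and pool 3 of both groups lay on another.

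Amiodarone is an iodine-containing antiarrhythmic drug whose cationic, lipid-loving molecule gathers in lysosomes and hinders the breakdown of phospholipids there. Mature red cells have no nucleus, but the youngest of them, the reticulocytes, still hold messenger RNA for globin, haem enzymes and the membrane skeleton, so they supply a large part of whole blood RNA. The remainder comes from white cells, which carry out inflammation and immunity, and from platelets, which inherit RNA from megakaryocytes. Each transcript is therefore read as a share of a mixture, and in bulk blood fewer cells of a type and less RNA per cell cannot be told apart.

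The arrays were blood by their markers. Of 31 red cell and reticulocyte genes on the array 30 were well above background on all 6 arrays. Of 15 liver genes only Apob was, and the liver transcripts Alb, Apoa1 and Ttr were above background on no array. Of 15 muscle genes Mb and Atp2a2 were, while 7 were above background on no array, among them Myh6, Myh7 and Nppa, which mark heart muscle. Of the other muscle genes, 1 was above background on the amiodarone arrays only and 5 on part of the arrays.

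The amiodarone arrays were brighter as a whole. The 75th percentile of signal, over the 11932 probes well above background on all 6 arrays, was 219.9, 183.9 and 234.6 intensity units in vehicle pools 1 to 3. It was 814.3, 499 and 731.9 in amiodarone pools 1 to 3. Every amiodarone array thus lay above every vehicle array, and the group means were 213 ± 26.1 (SD, n = 3) and 682 ± 164 (SD, n = 3), a ratio of 3.2. An exact two-sided permutation test gave p = 0.1, the smallest that 3 arrays against 3 can reach. Local background (40.7 and 41.0 units) and negative control spots (53.5 and 53.4 units) had nearly the same means in both groups. The 7 added spike-in probes averaged a log2 signal of 11.1 ± 0.579 (SD, n = 3) in the vehicle group, beside 11.4 ± 0.690 (SD, n = 3) after amiodarone, and their groups overlapped (exact permutation p = 0.8). The part of spike-in signal, background or pool in the brightness was not tested.

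**Figure D1:**
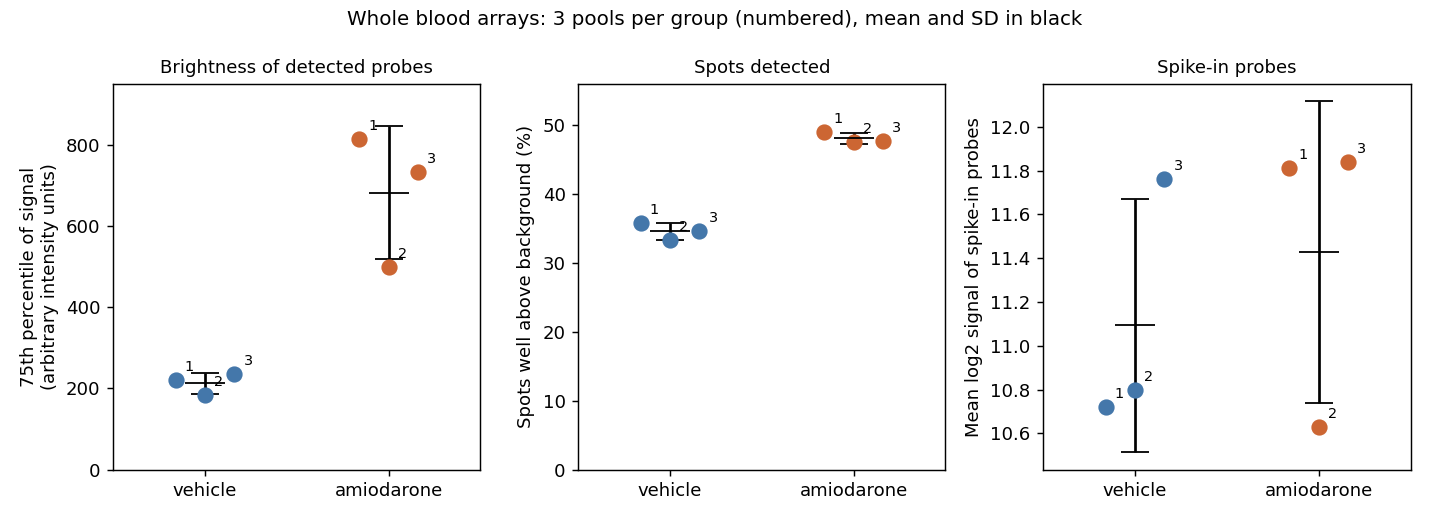
Brightness of detected probes (75th percentile of signal, intensity units), share of spots well above background (%) and mean log2 signal of spike-in probes in the 3 vehicle and 3 amiodarone pools, with pool numbers beside the points and mean and SD in black. The first 2 measures separate the groups, at 33.3% to 35.8% of spots in vehicle against 47.5% to 49% in amiodarone pools, while the spike-in points of both groups run from 10.63 to 11.84.

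Because of this brightness each difference is given on a pair of scales. The unscaled scale is the log2 processed signal as the scanner software gave it. The scaled value subtracts the log2 of that array's 75th percentile of detected probes, which lowers the amiodarone minus vehicle difference of every gene by 1.66. A scaled fall thus says that a transcript lost ground against the other transcripts of its array. An unscaled fall says that its spot became dimmer although the array as a whole became brighter. Genes were tested with limma, a linear model that shares the estimate of spread across genes, and a gene was called at a Benjamini-Hochberg adjusted p below 0.05 over 10792 features.

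Most of the blood transcriptome moved. On the scaled values 8127 features (75.3%) were called, of which 4099 (38%) were higher and 4028 (37.3%) lower in amiodarone blood, and the median difference was 0.12. On the unscaled values 7742 features (71.7%) were called, with 7462 (69.1%) higher, 280 (2.59%) lower and a median difference of 1.78. All 4099 features that rose on the scaled values also rose on the unscaled ones. Of the 4028 that fell on the scaled values, 280 also fell unscaled, 3032 were not called unscaled and 716 were higher unscaled. Unscaled, the groups were apart with amiodarone higher for 7596 features (70.4%) and lower for 410 (3.8%). The scaled values of the groups did not overlap for 8600 features (79.7%), so a call alone says little about a gene here. Differences are read below against the 5th and 95th percentiles of all scaled differences, -2.15 and 1.28. Likewise, counts of called list members stand beside the 38% higher and 37.3% lower of all features. In the unscaled fit limma assigned the same spread to every gene, so p-values of single genes are quoted from the scaled fit only. The count of unscaled falls was the less stable number: it was 176 without amiodarone pool 1, 177 without vehicle pool 1, 162 on the shared slide of pools 1 and 2, and 535 with pool number as a block.

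The direction of a scaled difference also went with brightness. In the dimmest sixth of features the median scaled difference was -1.04, with 62.1% of features called lower and 12.5% higher. In the next sixths it was 0.26, 0.41, 0.48 and 0.42, and in the brightest it was -0.14. The plot of medians by brightness shows the same bend with and without scaling, and its part in single falls was not tested. Of the 280 features that fell on both scales, 234 lay outside the dimmest sixth.

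**Figure D2:**
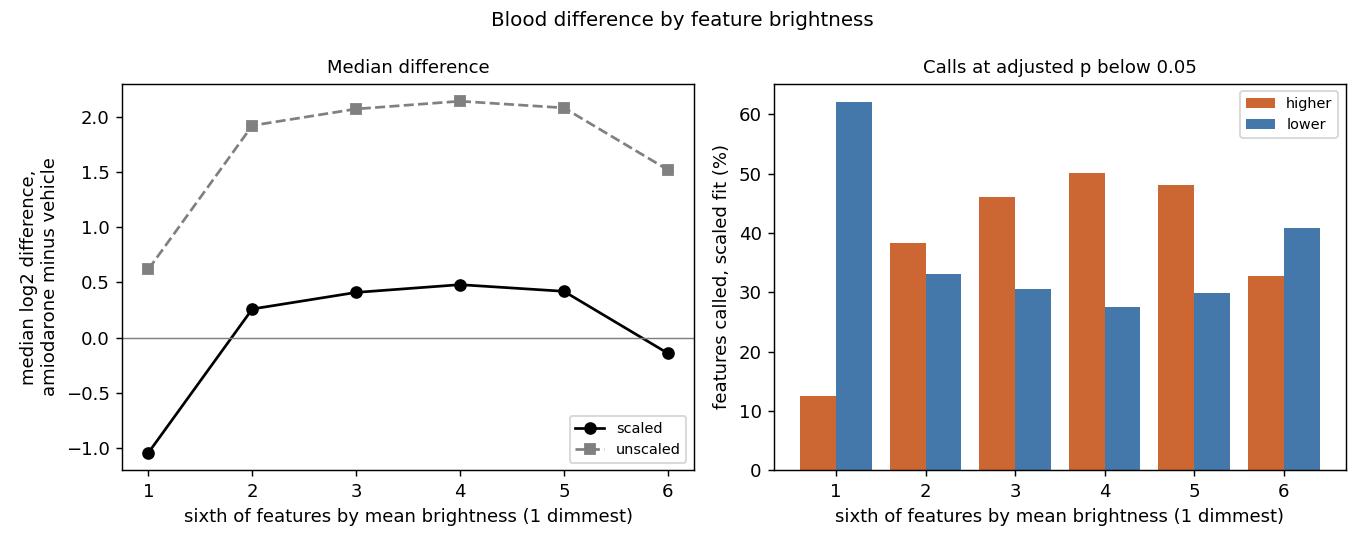
Median log2 difference (amiodarone minus vehicle) with and without scaling, and the percent of features called higher or lower in the scaled fit, for sixths of the 10792 features ordered by mean brightness. The dimmest sixth stands at -1.04 on scaled values with 62.1% of its features called lower, against medians of 0.26 to 0.48 in sixths 2 to 5.

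By list median, red cell transcripts lost most ground among the lists of blood cell markers on the scaled values. Of 30 tested genes 28 fell on the scaled values and none rose, beside 37.3% and 38% of all features. The list's scaled median was -1.96 against 0.12 over all features. Unscaled, 8 of the 30 were called lower and 2, Rhag and Nfe2, higher, and the list's median was -0.31 while that of all features was 1.78. Genes given below as exceptions or as the remaining members of a list were picked after their values were seen. Here they were Gypc, a glycophorin, at -1.0 scaled (SE 0.42, limma adjusted p = 0.0592) and 0.65 unscaled with overlapping groups, and Rhag, a Rhesus-associated membrane protein, at 0.86 (SE 0.47, limma adjusted p = 0.129) with a second probe at -1.49. Rhag was called higher without vehicle pool 3 (1.46, limma adjusted p = 0.00261), and Gypc lower without vehicle pool 1 (-1.49, limma adjusted p = 0.00509). With pool number as a block both were called, Gypc lower (limma adjusted p = 0.0025) and Rhag higher (limma adjusted p = 0.018). The probes of this list held 4.66%, 5.14% and 4.84% of the summed signal in vehicle pools and 1.78%, 2.65% and 2.37% in amiodarone pools. This share is a part of each array's summed signal, so it also falls where other signal rises. Its groups did not overlap, and it stood at a ratio of 0.465 (exact permutation p = 0.1, the smallest possible). The shares of all 12 marker lists separated the groups in this way, also those of lists with few tested genes. The liver list stood at a ratio of 0.466, and that of heart and skeletal muscle at 2.16.

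Of the red cell genes, Slc4a1 encodes band 3, the anion exchanger to which the skeleton is tied, and its probe lies on chromosome 10 from 91455352 to 91455411 (rn4, the build of all probe positions here). Its log2 signal was 12.88, 12.93 and 13.61 in vehicle pools and 11.05, 11.05 and 12.49 in amiodarone pools. The groups did not overlap, and the scaled difference was -3.27 (SE 0.38, limma adjusted p = 0.000348) against -1.61 unscaled. Sptb, the beta spectrin of that skeleton (chromosome 6, 99196669 to 99197135), read 9.80, 9.60 and 9.72 in vehicle and 7.97, 8.28 and 8.27 in amiodarone pools. Every amiodarone pool was lower, at -3.19 scaled (SE 0.26, limma adjusted p = 0.000287) and -1.53 unscaled. Ank1, the ankyrin that links spectrin to band 3 (chromosome 16, 73375762 to 73376097), stood at 6.29, 6.75 and 7.06 against 4.97, 5.17 and 5.39. Its scaled difference was -3.18 (SE 0.28, limma adjusted p = 0.000287) and its unscaled one -1.52, again with no overlap.

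Globin and the erythroid transcription factors moved less. The beta globin probe Hbb-b1 (chromosome 1, 161590680 to 161590739) read 17.35, 17.21 and 17.60 in vehicle and 17.39, 17.02 and 17.45 in amiodarone pools, so its unscaled values overlapped. The scaled difference was -1.76 (SE 0.16, limma adjusted p = 0.000287) and the unscaled one -0.10, so scaling made nearly all of it. After quantile normalization it was -0.43 (limma adjusted p = 0.047). Globin genes are near-identical copies, and the probes may share signal among them. Gata1, the master regulator of red cell genes, fell by 2.12 scaled and stood at -0.46 unscaled, and Tal1, its partner, gave -1.84 and -0.18, with a second Tal1 probe at 0.56 scaled. Hbg1, a gamma-type globin gene by its name, owed much of its scaled difference of -3.43 (SE 0.93) to amiodarone pool 1, which read 5.83 beside 9.33 and 9.09 in pools 2 and 3. Without that pool the difference was -2.16 (SE 0.27, limma adjusted p = 0.00107).

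Haem synthesis genes went the way of the red cell list, which shares Alas2 and Fech with them. Of 16 tested genes of haem synthesis and breakdown 13 fell and 2 rose on the scaled values, beside 37.3% and 38% of all features. On both scales 3 fell, beside 2.59% of all features. Fech, ferrochelatase, which inserts iron into the finished ring (chromosome 18, 60680214 to 60680273), read 11.64, 11.25 and 11.35 in vehicle and 9.76, 10.22 and 10.81 in amiodarone pools. The groups were apart, at -2.81 scaled (SE 0.32, limma adjusted p = 0.000344) and -1.15 unscaled. Blvrb, biliverdin reductase B, stood at -2.77 (SE 0.29, limma adjusted p = 0.000303) and -1.11, and Abcb10, a mitochondrial carrier needed for haem, at -2.38 (SE 0.26, limma adjusted p = 0.000322) and -0.72. Alas2, the erythroid first enzyme of the pathway, was at -1.84 scaled and -0.19 unscaled with overlapping unscaled groups, and was not called after quantile normalization (-0.31, limma adjusted p = 0.266). The 2 genes that rose, named after their values were seen, were those of cells in general: Alas1, the housekeeping first enzyme, at 1.00 (SE 0.18, limma adjusted p = 0.0019), and Hmox2, the constitutive haem oxygenase, at 0.95 (SE 0.14, limma adjusted p = 0.000738). Hmox1, the inducible haem oxygenase, was -1.07 scaled (SE 0.23, limma adjusted p = 0.00384) and 0.58 unscaled, so its direction turned with the scaling. Blvra, biliverdin reductase A, was not called at 3.20: its probe was saturated on amiodarone pool 1 at 18.87, beside 8.45 and 8.73 in pools 2 and 3 and 7.06 to 7.25 in vehicle pools.

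The upstream sequences of red cell genes that fell together were searched for the letters AGATAA, the core bound by GATA factors, on both strands. RefSeq (GRCr8) gave the 250 bases before the start for 21 of the 28 genes that fell, and 6 of these held the letters: Add2, Alas2, Fech, Rhd, Sptb and Trim58. That is 28.6%, beside 6.52% of 5399 genes tested in blood with such a sequence and 10.0% of all 27457 genes in the table. Sptb and Fech are shown as examples. Both also fell unscaled, as did Add2 (-0.76) and Rhd (-0.82), while Alas2 (-0.19) and Trim58 (-0.35) were not called unscaled. Capitals mark the searched letters, which appear in Fech as their reverse complement, TTATCT. As 28 of the 30 tested red cell genes fell, the share describes that chosen list and says nothing about the falls. The matches describe the sequence only.
Sptb (GRCr8 chr6:101170279-101170528, minus strand, read 5′ to 3′): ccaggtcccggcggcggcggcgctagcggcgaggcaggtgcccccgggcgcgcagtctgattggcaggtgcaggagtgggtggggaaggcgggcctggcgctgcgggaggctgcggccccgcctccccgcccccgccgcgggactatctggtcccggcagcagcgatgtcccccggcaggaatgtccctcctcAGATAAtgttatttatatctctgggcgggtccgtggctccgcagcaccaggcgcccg
Fech (GRCr8 chr18:60248526-60248775, minus strand, read 5′ to 3′): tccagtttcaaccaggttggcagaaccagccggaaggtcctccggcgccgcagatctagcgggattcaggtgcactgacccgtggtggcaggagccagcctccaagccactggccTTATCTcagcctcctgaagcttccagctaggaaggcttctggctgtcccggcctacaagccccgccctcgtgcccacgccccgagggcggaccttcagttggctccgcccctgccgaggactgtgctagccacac

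Of 16 tested iron genes 5 fell (Ncoa4, Slc25a37, Tfrc, Ftl1 and Hamp) and 7 rose on the scaled values, shares near the 37.3% and 38% of all features. Slc25a37 and Tfrc are also on the red cell list. After quantile normalization Ftl1, the light chain of ferritin, was no longer called (-0.13, limma adjusted p = 0.501). Tfrc, the transferrin receptor by which young red cells take up iron, was at -2.29 scaled (SE 0.22, limma adjusted p = 0.000287) and -0.63 unscaled, and Ncoa4, which delivers ferritin for breakdown, at -2.71 (SE 0.30, limma adjusted p = 0.000317) and -1.05. Tf, transferrin, rose by 1.77 (SE 0.18, limma adjusted p = 0.000287) and Fbxl5, an iron sensor, by 2.22 (SE 0.25, limma adjusted p = 0.000338). Among 29 antioxidant genes governed by NRF2 11 fell and 10 rose, again near the shares of all features. Cat, catalase, gave -2.64 (-0.98 unscaled) and Gpx4, a lipid peroxidase, -2.52 (-0.86 unscaled). The second Txnrd1 probe, of a thioredoxin reductase, stood at 1.35 scaled beside -1.88 in the brighter one, so that gene is not read in either direction.

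Autophagy genes gave 15 falls and 9 rises among 28 tested, beside 37.3% and 38% of all features. Their median was -0.50 scaled and 1.16 unscaled, so the list as a whole turned with the scaling. Bnip3l, which clears mitochondria from maturing reticulocytes and was named after its value was seen, was at -2.31 scaled (SE 0.33, limma adjusted p = 0.000687) and -0.65 unscaled. Atg7, an enzyme that starts the autophagosome coat, went the other way at 1.92 (SE 0.16, limma adjusted p = 0.000287). Of 18 tested genes of glycolysis and lactate 12 rose and 3 fell: Slc16a3, the lactate exporter of white cells, rose by 2.36 (SE 0.17, limma adjusted p = 0.000287), Pkm, pyruvate kinase, by 1.42 and Pfkp, the platelet-type phosphofructokinase, by 1.16. The falls were Pfkl at -2.30, Bpgm, which makes the oxygen-release factor of red cells, at -1.91 and Hk1, a hexokinase, at -0.84. The red cell share of signal fell in the same pools, as given above, and its part in these lists was not tested.

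**Figure D3:**
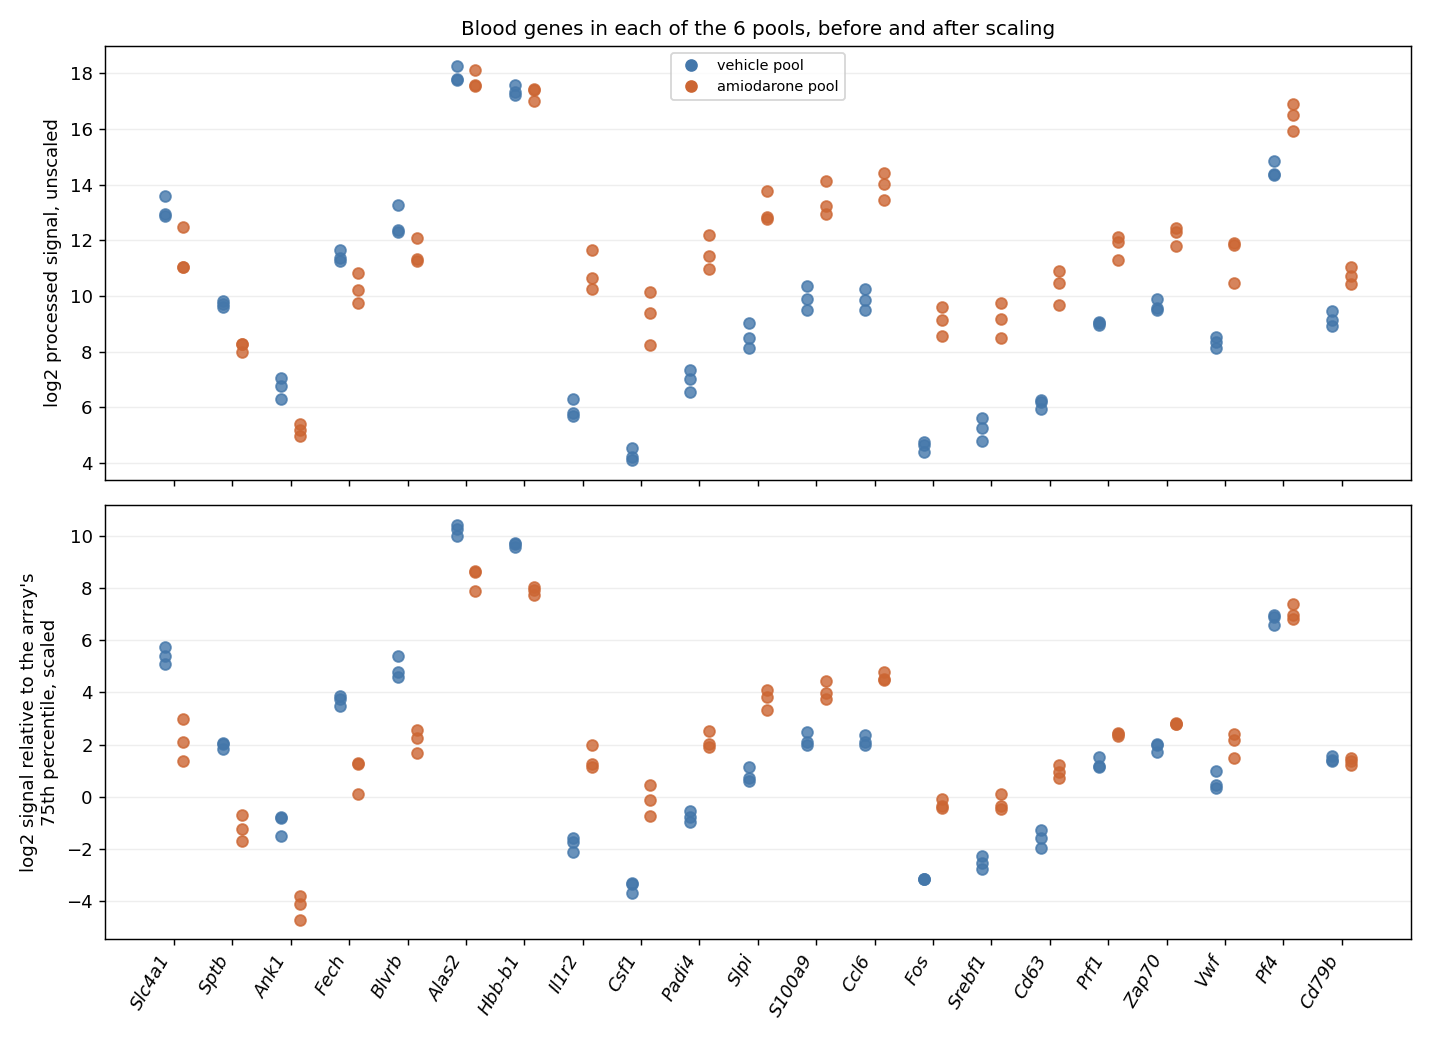
Log2 signal of 21 blood genes in each of the 6 pools, unscaled (top) and relative to the array's 75th percentile (bottom). Slc4a1, Sptb, Ank1, Fech and Blvrb are lower in amiodarone pools on both panels, Alas2 and Hbb-b1 only after scaling, and Il1r2, Csf1 and Padi4 are higher on both.

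Neutrophil genes rose, but not evenly. Of 31 neutrophil genes on the array 19 were tested, with a median of 1.00 on the scaled values. Of these, 11 rose and 4 fell, beside 38% and 37.3% of all features. The neutrophil probes held 0.039%, 0.0324% and 0.0331% of the summed signal in vehicle pools and 0.238%, 0.177% and 0.132% in amiodarone pools, a ratio of 5.23 with no overlap. Prok2 and Mmp8 were among those above background on the amiodarone arrays only. Mpo, Ltf, Cxcr1, Fpr1 and Defa5 were above background on no array.

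Il1r2, a decoy receptor that soaks up interleukin 1 (chromosome 9, 39316654 to 39319494), read 5.68, 5.79 and 6.30 in vehicle and 11.65, 10.23 and 10.66 in amiodarone pools. The groups lay far apart, at 3.27 scaled (SE 0.26, limma adjusted p = 0.000287) and 4.92 unscaled. Padi4, the enzyme that citrullinates histones in neutrophil nuclei, read 7.0, 6.56 and 7.33 against 12.20, 10.98 and 11.42, a scaled difference of 2.91 (SE 0.21, limma adjusted p = 0.000287). Alox5ap, which hands arachidonic acid to the leukotriene enzyme, rose by 2.66 (SE 0.23, limma adjusted p = 0.000287), and Csf3r, the receptor for granulocyte colony-stimulating factor, by 2.07 (SE 0.16, limma adjusted p = 0.000287). S100a9, a subunit of calprotectin, read 9.89, 9.51 and 10.37 against 14.12, 12.95 and 13.25 and rose by 1.86 (SE 0.23, limma adjusted p = 0.00041).

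The 4 neutrophil genes that fell, named after their values were seen, encode proteins of the early granules made in the bone marrow. RatNP-3b, a defensin, was at -2.17 scaled (SE 0.30, limma adjusted p = 0.000591) and -0.51 unscaled, and Prtn3, proteinase 3, at -1.77 (SE 0.36, limma adjusted p = 0.00279) and -0.12. Elane, neutrophil elastase, gave -1.40 and 0.26, and Np4, a defensin, -0.91 and 0.75, so both of those turned with the scaling. On the unscaled values none of the 4 was called lower.

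Csf1, the growth factor of monocytes (chromosome 2, 203292743 to 203292773), read 4.10, 4.22 and 4.52 in vehicle and 10.14, 8.25 and 9.37 in amiodarone pools. This was the largest scaled rise called among genes with a symbol measured on every array, 3.31 (SE 0.29, limma adjusted p = 0.000287), and a second probe gave 3.70. Slpi, a protease inhibitor, rose by 2.92 (SE 0.25, limma adjusted p = 0.000287), Pglyrp1, a granule protein that binds bacterial cell walls, by 2.72 (SE 0.31, limma adjusted p = 0.000339), and Cfd, complement factor D, by 2.57 (SE 0.22, limma adjusted p = 0.000287). Serpinb1a, an inhibitor of neutrophil elastase, rose by 2.63 and Adam8, a membrane protease of leukocytes, by 2.56. Dgat2, which makes triglyceride, rose by 2.99 on its brighter probe, while its other probe gave -0.22, so this rise rests on 1 probe.

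More inflammatory signalling genes rose than fell. Of 13 tested genes of interleukin 1 and toll-like receptor signalling 8 rose and 3 fell, beside 38% and 37.3% of all features. The list's median was 0.84. Il1b, the cytokine itself, read 8.79, 8.47 and 9.15 in vehicle and 12.93, 12.21 and 12.32 in amiodarone pools, a scaled rise of 2.03 (SE 0.19, limma adjusted p = 0.000287), and a second probe gave 2.15. Tlr2, a receptor for bacterial lipoproteins, rose by 2.05 (SE 0.21, limma adjusted p = 0.000287) and its partner Tlr6 by 1.61 (SE 0.16, limma adjusted p = 0.000287). The 3 that fell, named after their values were seen, were Irak1 at -1.54, Nfkb1 at -1.18 (0.73 on its other probe) and Tlr9 at -0.95, and none of them was called lower unscaled.

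Of 12 tested chemokine genes 5 rose and 3 fell, near the shares of all features, and 16 of the 37 on the array were above background on none. Ccl6 rose by 2.44 (SE 0.17, limma adjusted p = 0.000287) and Ccl3, macrophage inflammatory protein 1 alpha, by 2.20 (SE 0.26, limma adjusted p = 0.000364). Cxcr5, the receptor that guides B cells to follicles, was at -1.82 scaled and -0.17 unscaled. Of 11 tested acute phase genes 7 rose and 3 fell, beside 38% and 37.3% of all features. Lbp, lipopolysaccharide-binding protein, rose by 1.80, and Serpina3n, a protease inhibitor, was at -2.01 scaled and -0.36 unscaled. In the leukotriene and prostaglandin list 4 of 8 rose and 2 fell, not far from the shares of all features. The falls were Alox15, a lipoxygenase, at -2.32 (-0.67 unscaled) and Ltc4s, leukotriene C4 synthase, at -1.48 (0.17 unscaled).

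Of 15 tested monocyte genes 7 rose and 4 fell, beside 38% and 37.3% of all features, with a median of 0.61, and the summed share of monocyte probes went from 0.0525% to 0.0851% in vehicle pools to 0.232% to 0.303% in amiodarone pools. Fcgr1a, the high-affinity IgG receptor, rose by 1.59 (SE 0.17, limma adjusted p = 0.000297), Lgals3, galectin 3, by 1.92 (SE 0.23, limma adjusted p = 0.00036), and Apoe, apolipoprotein E, by 2.05 (SE 0.24, limma adjusted p = 0.000353). Cd68, a lysosomal protein of macrophages, rose by 0.69 (SE 0.16, limma adjusted p = 0.0047), while Csf1r, the receptor for Csf1, was at 0.61 (SE 0.25, limma adjusted p = 0.058) and passed without vehicle pool 1 (0.80, limma adjusted p = 0.0277) and with pool number as a block (limma adjusted p = 0.0321). C1qb, a complement chain of tissue macrophages, was at -2.27 scaled (SE 0.29, limma adjusted p = 0.000443) and -0.61 unscaled. The other falls were Cd36 at -1.87, Cx3cr1 at -1.0 and Adgre1 at -0.60, of which the last 2 stood at 0.66 and 1.06 unscaled. Their calls were lost in 4 and 3 of the 6 fits that left out a pool, with limma adjusted p up to 0.0943 and 0.132. The macrophage markers Cd163, Msr1, Marco, Siglec1 and Spp1 were above background on no array.

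Gpnmb, a lysosomal membrane glycoprotein of macrophages, passed the background test on 1 of 3 vehicle arrays and on all 3 amiodarone arrays (chromosome 4, 77182198 to 77182257). Its log2 signal was 4.16, 3.30 and 3.28 in vehicle and 11.62, 9.96 and 10.71 in amiodarone pools. Its scaled difference was 5.53 (SE 0.34). Among the 15911 features measured in at least 1 group 10360 (65.1%) were called, but a gene that entered through its amiodarone arrays, as Gpnmb did, had to differ, so this value is a description.

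Lymphocyte genes differed by lineage. By list median cytotoxic genes gained most, at 1.12. Of 15 tested genes of natural killer cells and their granules 12 rose and none fell, beside 38% and 37.3% of all features. Prf1, perforin, read 8.94, 9.03 and 9.05 in vehicle and 12.13, 11.28 and 11.93 in amiodarone pools, a scaled rise of 1.12 (SE 0.16, limma adjusted p = 0.000719). Gzmk, a granzyme, rose by 1.42 (SE 0.17, limma adjusted p = 0.000356), Klrb1a, a killer cell lectin receptor, by 1.21 (SE 0.16, limma adjusted p = 0.000522), and Ccl5, a chemokine of cytotoxic cells, by 1.18 (SE 0.16, limma adjusted p = 0.000526). Gzmb, granzyme B, was at 0.39 (SE 0.24, limma adjusted p = 0.164), and its other probes reached -1.53. Ncr1, an activating receptor of natural killer cells, was above background on no vehicle array and on all 3 amiodarone arrays, at least 1.38-fold higher scaled and at least 4.35-fold higher unscaled.

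T cell genes rose by smaller and more even amounts. Of 20 tested 14 rose and none fell, beside 38% and 37.3% of all features. The list's median was 0.67, with a range from -0.13 to 0.96. Zap70, the kinase of the T cell receptor, read 9.51, 9.56 and 9.88 against 12.44, 11.80 and 12.30 and rose by 0.87 (SE 0.15, limma adjusted p = 0.00159). Lef1, a transcription factor of naive T cells, rose by 0.87, Cd3e, a receptor chain, by 0.60 and Cd8a, the coreceptor of cytotoxic T cells, by 0.65. Cd6, an adhesion receptor, rose by 0.69 on its brighter probe and gave -0.16 on the other. The summed share of T cell probes was 0.0846% ± 0.00842 (SD, n = 3) in the vehicle group and 0.197% ± 0.0174 (SD, n = 3) after amiodarone.

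B cell genes lay near the median of all features on the scaled values. Of 9 tested Cd22, an inhibitory receptor, rose by 0.65 (SE 0.16, limma adjusted p = 0.00688), Vpreb3 fell by 0.53 scaled and was 1.13 higher unscaled, and the other 7 were not called. Cd79b, a chain of the B cell receptor, was at -0.10 (SE 0.15, limma adjusted p = 0.568) with overlapping scaled groups. The list's median was 0.08 beside 0.12 over all features. Its summed share of signal was higher after amiodarone, at 0.0158% to 0.02% in vehicle pools and 0.0269% to 0.0356% in amiodarone pools. The ratio was 1.87, and the groups did not overlap, as for every marker list. Without such a ratio for features in general, it is not read as a gain of B cell transcripts. Among 8 genes of dendritic cells and MHC class II Tcf4, a factor of plasmacytoid dendritic cells, rose by 0.65 and none fell, and their summed share went from 0.0736% to 0.106% in vehicle pools to 0.142% to 0.209% in amiodarone pools. A p above the threshold does not show that these genes were unaffected.

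**Figure D4:**
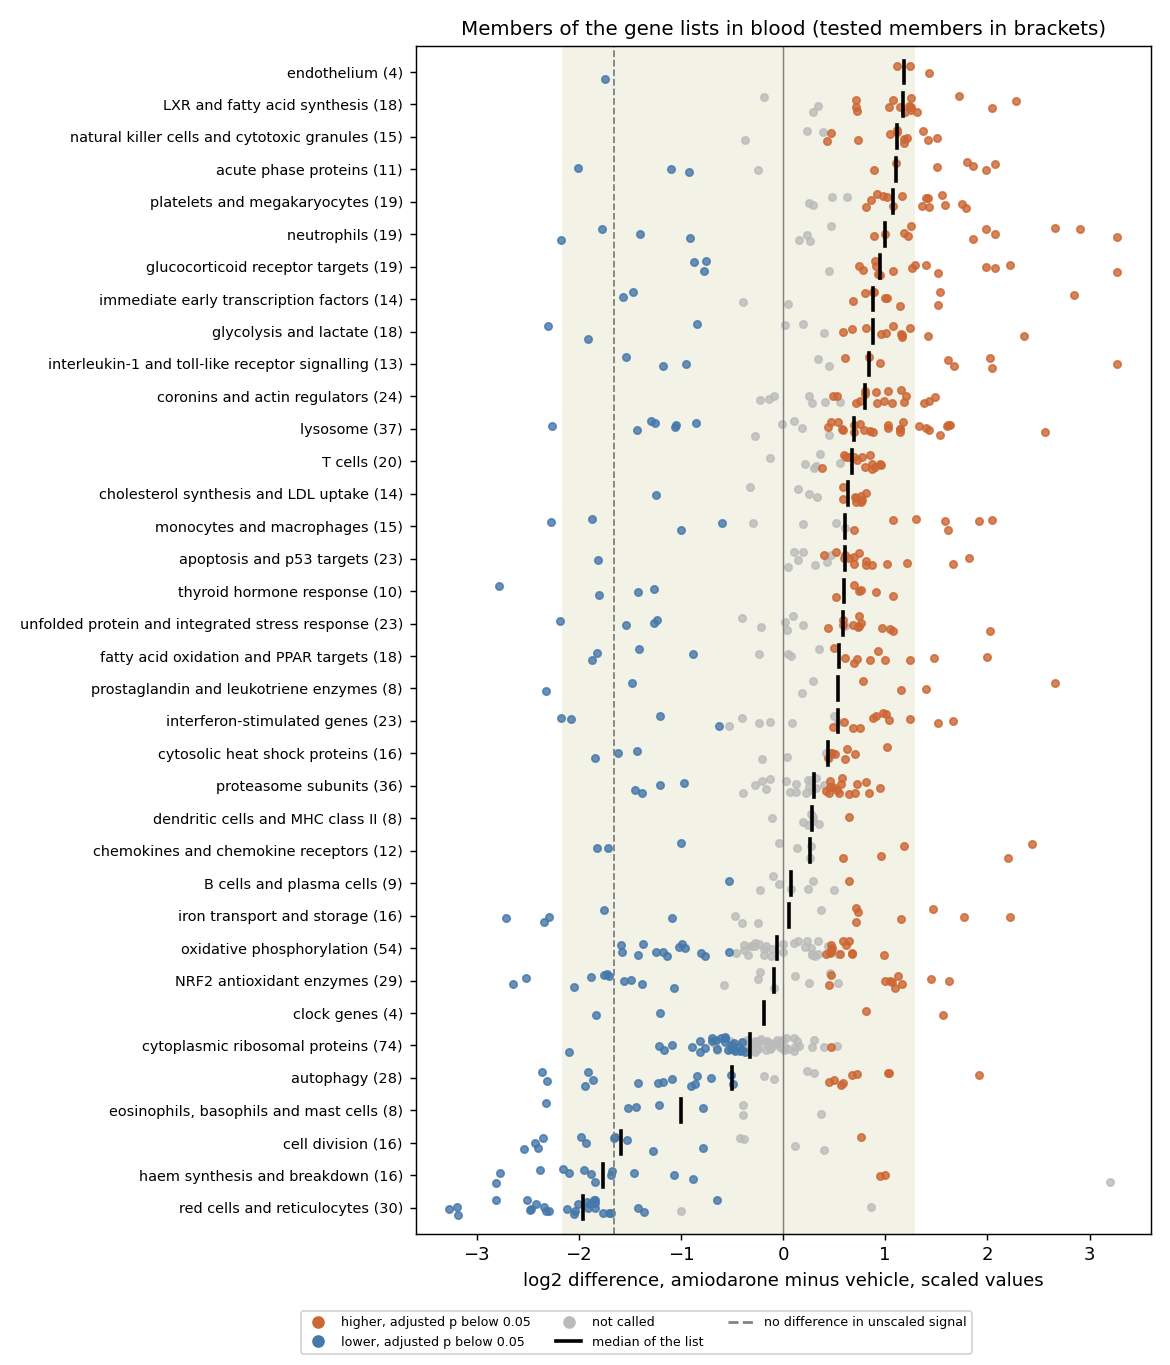
Scaled log2 differences (amiodarone minus vehicle) of every tested member of the gene lists with at least 4 tested members, ordered by list median (black bars); the shaded band runs from the 5th to the 95th percentile of all features (-2.15 to 1.28) and the dashed line at -1.66 marks no difference in unscaled signal. Red cell, haem and cell division lists lie lowest, with medians of -1.96, -1.76 and -1.59, and LXR and natural killer lists near the top at 1.17 and 1.12.

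Most platelet transcripts rose. Of 19 tested 15 rose and none fell, beside 38% and 37.3% of all features, with a list median of 1.08. The summed share went from 0.44% to 0.549% in vehicle pools to 1.17% to 1.56% in amiodarone pools. Vwf, von Willebrand factor, which tethers platelets and is also made by endothelium, read 8.13, 8.51 and 8.33 against 11.83, 10.46 and 11.92 and rose by 1.43 (SE 0.27, limma adjusted p = 0.00229). F2rl2, a thrombin receptor, rose by 1.59 (SE 0.24, limma adjusted p = 0.000879), F13a1, the clot-linking factor, by 1.56 (SE 0.29, limma adjusted p = 0.00192) and Tbxas1, thromboxane synthase, by 1.40 (SE 0.16, limma adjusted p = 0.000363). Pf4, platelet factor 4 and among the most abundant of platelet transcripts, was at 0.25 (SE 0.20, limma adjusted p = 0.29). It was called higher after quantile normalization (1.22, limma adjusted p = 0.000295), so whether it rose depends on the normalization. Of 4 tested endothelial genes Kdr, a receptor for vascular growth factor, and Esam, a junction protein, rose with Vwf, while Pecam1 was at -1.74 scaled and -0.09 unscaled. The endothelial genes Tek, Tie1, Cldn5 and Nos3 were above background on no array.

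Transcripts of eosinophils, basophils and mast cells fell in part on the scaled values. Of 8 tested 5 fell and none rose, beside 37.3% and 38% of all features. Mcpt8 (-1.44), Mcpt8l3 (-1.21) and Tpsb2 (-1.52), proteases of basophils and mast cells and 3 of the 5 falls, lay in the dimmest sixth of features, where 62.1% were called lower and the median was -1.04. The list's summed share went from 0.0599% to 0.089% in vehicle pools to 0.0265% to 0.0368% in amiodarone pools. That share stood at a ratio of 0.417 with no overlap. A summed share follows its bright members most. Alox15, also on this list, read 12.54, 12.93 and 13.65 in vehicle and 12.22, 11.95 and 12.95 in amiodarone pools, while the 3 proteases read 3.59 to 5.27. The share is therefore not read as a measure of these cells. Unscaled, the 3 proteases stood at 0.22, 0.45 and 0.14. Epx, Il5ra, Ms4a2 and Fcer1a, which define these cells, were above background on no array. With a list median of -1.0 scaled and 0.66 unscaled, its direction turned with the scaling, and no member was called lower unscaled.

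Lysosomal genes rose more often than they fell. Of 37 tested 25 rose and 7 fell, beside 38% and 37.3% of all features. The list's median was 0.69 scaled and 2.35 unscaled, and 8 more genes were above background on the amiodarone arrays only. Cd63, a membrane protein of lysosomes and platelet granules (chromosome 7, 2210440 to 2210499), read 6.19, 6.24 and 5.92 in vehicle and 10.88, 9.68 and 10.45 in amiodarone pools. Its scaled rise of 2.56 (SE 0.22, limma adjusted p = 0.000287) lay beyond the 95th percentile of all features. The protease Ctsh rose by 1.63 (SE 0.17, limma adjusted p = 0.000299) and the protease Ctsc by 1.40 (SE 0.17, limma adjusted p = 0.000403). Of the proton pump, Atp6v1b2 rose by 1.61 and Atp6v0a1 was at -1.29. The abundant proteases Ctsb and Ctsd went the other way, at -2.26 and -1.25 scaled, and stood at -0.60 and 0.41 unscaled with overlapping groups. Neutrophil and monocyte shares of signal were higher in the same pools, and their part in the lysosomal rise was not tested.

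Lipid synthesis and export genes rose. Of 18 tested targets and enzymes of LXR and fatty acid synthesis 15 rose and none fell, beside 38% and 37.3% of all features. The list's median was 1.17. Srebf1, the transcription factor that drives fatty acid synthesis, read 5.25, 4.78 and 5.61 in vehicle and 9.76, 8.50 and 9.18 in amiodarone pools, a scaled rise of 2.28 (SE 0.21, limma adjusted p = 0.000287). Abcg1, which exports cholesterol from macrophages, rose by 1.72 (SE 0.19, limma adjusted p = 0.000322), and Fasn, fatty acid synthase, by 1.31 (SE 0.17, limma adjusted p = 0.000501) with a second probe at 1.34. Of 14 tested genes of cholesterol synthesis and LDL uptake 9 rose and 1 fell, with smaller values. Hmgcs1, which makes the first committed precursor, rose by 0.59 (SE 0.16, limma adjusted p = 0.0101), Mvk, mevalonate kinase, by 0.77, Insig1, the sterol sensor's anchor, by 0.71 and Scap, its escort, by 0.70.

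The 1 cholesterol gene that fell was Fdps, farnesyl diphosphate synthase, at -1.24 scaled and 0.42 unscaled on its brightest probe, while its other probes reached 1.04. Sqle, squalene epoxidase, was measured on 2 vehicle arrays and stood at 0.75 (SE 0.33), a value given without a test. Cyp51, a sterol demethylase, was among 6 genes of the pathway above background on the amiodarone arrays only. Among 18 tested genes of fatty acid oxidation and PPAR targets 10 rose and 4 fell, beside 38% and 37.3% of all features. Hadh, a mitochondrial dehydrogenase, rose by 1.48 (SE 0.16, limma adjusted p = 0.000322). Ppard, a lipid-sensing receptor, was at -1.82 scaled and -0.17 unscaled.

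Glucocorticoid targets and immediate early genes rose. Of 19 tested glucocorticoid receptor targets, a list that shares Il1r2 with the neutrophils, 15 rose and 3 fell (Mt2A, Tgm2 and Irs2). Among all features 38% rose and 37.3% fell. The median of this list was 0.95. Cebpd, a transcription factor of myeloid cells, rose by 2.07 (SE 0.19, limma adjusted p = 0.000287) and Sgk1, a kinase, by 1.52 (SE 0.16, limma adjusted p = 0.000297). Fkbp5, a chaperone of the receptor, rose by 1.99 (SE 0.21, limma adjusted p = 0.000305) on its brighter probe and gave 0.58 on the other. Of 14 tested immediate early genes 10 rose and 2 fell. Fos read 4.65, 4.39 and 4.73 in vehicle and 9.60, 8.54 and 9.14 in amiodarone pools and rose by 2.85 (SE 0.16, limma adjusted p = 0.000287), with Klf6 at 1.54, Ier2 at 1.14 and Btg2 at 1.02. The falls were Ier3 at -1.57 scaled and 0.09 unscaled, and Fosb at -1.47.

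Stress and housekeeping lists had scaled medians of 0.59 (unfolded protein), 0.44 (heat shock), 0.54 (interferon) and 0.30 (proteasome), beside 0.12 over all features. Their counts stand beside 38% higher and 37.3% lower among all features. Of 23 tested genes of the unfolded protein and integrated stress responses 12 rose and 4 fell, among them Trib3, a stress-induced pseudokinase, at 2.03 and Asns, asparagine synthetase, at -2.18 (-0.52 unscaled). Of 16 cytosolic heat shock genes 8 rose and 3 fell, with Bag3, a co-chaperone, at 1.02. Of 23 tested interferon-stimulated genes 12 rose and 4 fell: Oas1a, an antiviral enzyme, rose by 1.66 and Gbp2, a GTPase, by 1.24, while Rsad2 was at -2.17 (-0.52 unscaled) and Isg20 at -2.08 (-0.43 unscaled). Of 36 proteasome subunits 15 rose, near the share of all features, and 4 fell. Psmc1 was at 0.84, and Psmd4 at -1.38 scaled and 0.27 unscaled.

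Ribosomal protein genes, all 74 of those on the array measured in every pool, gave 27 falls, near the 37.3% of all features, and 1 rise. The rise was that of Rpl3 at 0.47, a call lost in 4 of 6 fits that left out a pool (limma adjusted p up to 0.117). The other 46 ribosomal genes were not called. Their median was -0.32 scaled but 0.28 after quantile normalization, 0.32 after cyclic loess, 0.10 in the authors' value table, 1.00 with spike-in scaling and 1.34 unscaled, so the family has no settled direction. Rps14 fell furthest, by 2.10 scaled, at -0.45 unscaled. Of 54 tested genes of oxidative phosphorylation 13 rose and 13 fell, beside 38% and 37.3% of all features, with a list median of -0.06. Sdha, the large subunit of succinate dehydrogenase, rose by 0.99 (SE 0.18, limma adjusted p = 0.00168).

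Cell division genes were among the lists that lost most. Of 42 on the array 16 were tested, of which 11 fell and 1, Pcna at 0.76, rose, beside 37.3% and 38% of all features. The list's median was -1.59 scaled and 0.07 unscaled. Cdc20, which triggers the exit from mitosis, read 7.75, 7.71 and 7.82 in vehicle and 6.91, 7.0 and 7.14 in amiodarone pools. It fell by 2.40 (SE 0.22, limma adjusted p = 0.000287), was at -0.74 unscaled, and its groups did not overlap on either scale. Ccne2, a cyclin of DNA replication, gave -2.54 (-0.88 unscaled) and Birc5, survivin, -2.35 (-0.69 unscaled). The median of the list was -0.42 after normexp background correction, another way of treating background.

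Of 23 tested apoptosis and p53 target genes 15 rose and 1 fell, beside 38% and 37.3% of all features. Fas, a death receptor, read 4.70, 4.51 and 4.57 in vehicle and 8.38, 7.66 and 7.71 in amiodarone pools and rose by 1.66 (SE 0.19, limma adjusted p = 0.000353), and Bbc3, the p53 target Puma, rose by 1.82 (SE 0.23, limma adjusted p = 0.000458). The gene that fell was Bcl2l1, the survival factor of erythroid cells, at -1.81 scaled and -0.16 unscaled. Of 24 tested coronins and actin regulators, which move white cells and platelets, 17 rose and none fell, among them Fermt3, an integrin activator, at 1.43, Vav1 at 1.20, Wipf1 at 1.18 and Rac2 at 1.03. Thyroid hormone genes gave 6 rises and 4 falls among 10 tested, beside 38% and 37.3% of all features. Klf9, a hormone target, rose by 0.91, and Dio1, the deiodinase, was at -1.80 scaled and -0.14 unscaled. Among 4 tested clock genes Nfil3 rose by 1.57 and Dbp by 0.81, while Bhlhe41 was at -1.83 and -0.17 unscaled.

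The largest scaled falls outside the red cell lists were of mixed kind, and several were smaller without amiodarone pool 1 but still called. Cenpwl1, a gene like the centromere protein W gene, read 7.60, 7.19 and 8.02 in vehicle and 5.20, 5.31 and 6.12 in amiodarone pools, the largest called fall of a gene with a symbol measured on every array, at -3.72 (SE 0.29, limma adjusted p = 0.000287) and -2.06 unscaled. Sdc3, a cell surface proteoglycan, gave -3.41 (SE 0.21, limma adjusted p = 0.000287) and -1.75. Zfp474, Pkhd1 and Adgrg7 gave -3.30, -3.14 and -3.11, with signals in the lowest 2 of the 6 brightness classes. Amiodarone pool 1 stood apart for some probes: it lay more than 2 log2 units below both other pools of its group for 41 features, against 1 for pool 2 and 2 for pool 3. Klk1, a kallikrein, was at -3.28 with this pool and at -2.05 without it. Cyp2s1, a cytochrome P enzyme, was at -3.16 with it (SE 1.18, limma adjusted p = 0.0384) and -1.53 without it (SE 0.29, limma adjusted p = 0.00394). Its call was lost when any of the 3 vehicle pools was left out, with limma adjusted p up to 0.102. The olfactory receptor gene Or5aq6 was at -3.10 with amiodarone pool 1 and -2.17 without it.

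Some genes crossed the detection limit. By symbol, 1221 genes were well above background on all 3 amiodarone arrays and on no vehicle array, and 11 were so in the reverse sense. Such genes had to differ because of how they were chosen, so their values are given as a description and their calls support nothing. A bound sets the bright group's mean against the dimmest signal that counted as measured on each dim array (means of normalized log2 values). Crispld2, a secreted protein that binds lipopolysaccharide (chromosome 19, 50376728 to 50376787), read 2.05, 1.13 and 1.20 in vehicle and 10.13, 8.21 and 7.88 in amiodarone pools, at least 14.9-fold higher scaled and 46.9-fold unscaled. Prok2, a chemoattractant of neutrophils, was at least 8.62-fold higher, and Mmp8, the neutrophil collagenase, at least 5.18-fold. Mpzl2, an adhesion protein, was at least 9.84-fold higher, Ldhc, a lactate dehydrogenase known from testis, at least 9.16-fold and Lhfpl2 at least 6.06-fold.

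In the reverse direction the signals were faint. Gpr4, a proton-sensing receptor of endothelium (chromosome 1, 78587319 to 78587378), read 4.32, 4.78 and 5.98 in vehicle and 3.45, 1.78 and 2.34 in amiodarone pools, at least 10.6-fold lower scaled and 3.35-fold lower unscaled. Tfap2e, a transcription factor, was at least 8.13-fold lower, Pcsk6, a proprotein convertase, at least 6.18-fold, Tlcd4 5.20-fold, Olr673, an olfactory receptor gene, 4.77-fold and Yod1, a deubiquitinase, 4.58-fold. With no scaling these bounds were 2.58, 1.96, 1.65, 1.51 and 1.45. After normexp background correction 3 genes measured in only 1 group were called, against 678 with the processed signal, so this set depends on how background is treated.

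The blood response differed from that of the ventricle of the same study. Over 8986 features well above background on all 12 arrays, with each tissue scaled alone, 6906 (76.9%) were called in blood and 636 (7.08%) in left ventricle. The difference between the drug effects was itself tested in 1 limma fit, which called 5411 features (60.2%), 3096 (34.5%) with the higher effect in blood and 2315 (25.8%) with the lower. With no scaling it called 6799 (75.7%), 6728 (74.9%) of them higher in blood. Both tissues' pools were separate arrays, and the labels do not tell whether equal numbers mean the same rats in both tissues.

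The 5 most certain differences upward in blood were led by Ret, a receptor tyrosine kinase, whose 3 blood probes rose by 1.25 to 1.59. Its drug effect was 1.59 in blood and -2.18 in ventricle, a difference of 3.77 (SE 0.23, limma adjusted p = 2.6e-06). Slc16a3, the lactate exporter named above, was at 2.36 and -1.20, a difference of 3.55 (SE 0.22, limma adjusted p = 2.6e-06). Trak1, a mitochondrial transport adaptor, and N4bp3, a ubiquitin ligase partner, also rose in blood and fell in ventricle, with differences of 2.79 and 2.64. Aldh3b1, an aldehyde dehydrogenase, was at 2.14 in blood and -0.42 (limma adjusted p = 0.107) in ventricle.

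Downward in blood, Inhca gave the widest difference at -4.07 (SE 0.31, limma adjusted p = 1.58e-05), from -2.93 in blood and 1.14 in ventricle. Ucma, a cartilage matrix protein, gave -3.21, Tinagl1, a matrix protein, -3.42 and Chrng, an acetylcholine receptor subunit, -3.02, all lower in blood and higher in ventricle. These 3 lay in the lowest 3 of the 6 brightness classes in blood, and their unscaled blood differences were -0.12, -0.32 and -0.55, with overlapping groups. Sdc3 gave -3.05, from -3.41 in blood and -0.36 in ventricle (limma adjusted p = 0.237). With no scaling the 5 downward differences ran from -2.34 to -1.29 and kept their direction.

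**Figure D5:**
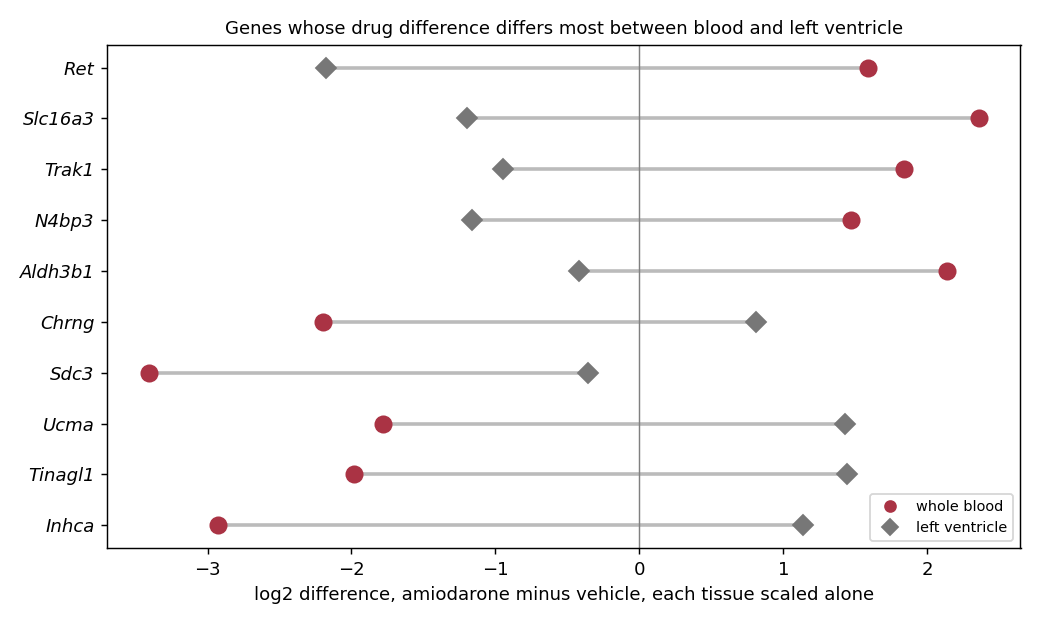
Scaled log2 drug differences (amiodarone minus vehicle) in whole blood (circles) and left ventricle (diamonds) for the 10 genes with the smallest p for the difference between tissues, 5 in each direction. Ret, Slc16a3, Trak1 and N4bp3 lie right of 0 in blood and left of it in ventricle, and Inhca, Ucma, Tinagl1 and Chrng the reverse.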

How the data were processed

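Single-colour Agilent rat arrays (Cy3 only) of 12 RNA pools were used, 6 of them blood, in 4 groups of 3. The processed signals are intensities that the authors deposited as scanner output, background-subtracted and detrended by Agilent Feature Extraction 9.5.1.1 per the file headers, with probe positions on rn4. The per-spot flags (well above background, outlier, saturated), another kind of value, were deposited in the same files. The authors' value table holds intensities normalized by the authors for blood and heart separately, by a method not given in the sources used here, and served as an alternative.

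Control spots were dropped. Replicate spots of the same probe were averaged without those flagged as outliers. A probe with only flagged spots kept their signal, so flagged values may remain in single arrays. Log2 signal was scaled by each array's 75th percentile over probes well above background on all 6 blood arrays. Of 41012 probes, 16725 were named by accession, 3537 by symbol and 1067 by synonym through RefSeq, and 19683 kept the file's name. Features well above background on all 6 arrays were tested (brightest probe per symbol) with limma 3.58.1 in R 4.3.3. The fit was first tried on simulated data with independent noise and few changed genes. In blood 75.3% of features were called, so that trial says little about the calls here. Fewer arrays limit the precision.

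Genes named were the 12 largest changes per direction, the 6 largest bounds per direction, up to 4 members per list by p, the 5 most certain tissue differences per direction and a set of genes chosen by name. The members and the 38 lists were chosen with earlier results of these data known. Pools of the same number had correlated deviations (0.12, 0.29 and 0.43, each over 0.1), and a fit with pool number as a block was also made. Vehicle pool 1, however, correlated more with amiodarone pool 2 (0.29) than with pool 1. Whether the numbers pair the pools is therefore not settled. The value table has 0 columns that match no sample. Some genes of the lists are not reported here.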

Additional observations from a re-analysis of the deposited data

Results flagged for a closer look

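The difference between the drug effects in blood and in left ventricle was itself tested in the limma fit of all 12 arrays, and 5411 features passed at an adjusted p below 0.05. The genes with the smallest p differed upward in blood by 3.77 (Ret), 3.55 (Slc16a3), 2.79 (Trak1), 2.64 (N4bp3) and 2.56 (Aldh3b1) on the scaled log2 values. Downward in blood they were Inhca at -4.07, Tinagl1 at -3.42, Ucma at -3.21, Sdc3 at -3.05 and Chrng at -3.02. Blood amiodarone arrays were brighter than blood vehicle arrays by a ratio of 3.2, and the part of this in the differences was not tested.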

How the results depend on the processing

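The count of 8127 blood calls was 7176 to 7926 when a pool was left out (3426 to 3946 higher, 3738 to 3980 lower). The unscaled count was then 7365 to 8184, that of genes measured in 1 group 508 to 735, that of tissue differences 4805 to 5406, the brightness ratio 2.89 to 3.63 and the red cell share ratio 0.425 to 0.515. With the replicate block 8382 features were called (8406 unscaled), no call named in the text was lost, and Csf1r (0.61), Gypc (-1.0) and Rhag (0.86) became called, as they did with the slide as a block.

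With no scaling 7462 features were higher and 280 lower, and with spike-in scaling 6473 and 322. Normexp background gave 2847 calls (1372 higher, 1475 lower), no filter 24957 (18988 lower), the stricter filter, which tests fewer features, 5107 (2562 and 2545), and a test against a 2-fold change 1356 (178 and 1178). The share of calls that were higher was 50.4%, and it was 96.4% with no scaling, 95.3% with spike-ins, 23.9% with no filter, 13.1% against 2-fold and 40.8% in the authors' table. The unscaled count was 12244 with features measured in at least 1 group and 4675 under the stricter filter. The 678 genes called among those measured in 1 group became 1229 with no scaling and 3 with normexp. The cause was not tested.

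Directions turned with no scaling for Adgre1 (1.06), Atp6v0a1 (0.37), Cd79b (1.56), Ctsd (0.41), Cx3cr1 (0.66), Elane (0.26), Fdps (0.42), Fosb (0.19), Hamp (0.56), Hk1 (0.81), Hmox1 (0.58), Ier3 (0.09), Irak1 (0.12), Irs2 (0.90), Ltc4s (0.17), Mb (0.60), Mcpt8 (0.22), Mcpt8l3 (0.45), Mt2A (0.78), Nfe2 (1.01), Nfkb1 (0.48), Np4 (0.75), Psmd4 (0.27), Tgm2 (0.89), Tlr9 (0.70), Tpsb2 (0.14) and Vpreb3 (1.13). Gypc, which was called on neither scale, went to 0.65. With spike-in scaling they turned for Adgre1 (0.72), Atp6v0a1 (0.04), Cd79b (1.22), Ctsd (0.07), Cx3cr1 (0.32), Fdps (0.08), Hamp (0.23), Hk1 (0.48), Hmox1 (0.25), Irs2 (0.57), Mb (0.26), Mcpt8l3 (0.11), Mt2A (0.45), Nfe2 (0.67), Nfkb1 (0.14), Np4 (0.41), Tgm2 (0.55), Tlr9 (0.37) and Vpreb3 (0.79), and with cyclic loess, an alternative chosen after seeing the data, for Irs2 (0.30) and Mcpt8l3 (0.08). Of the 171 named calls 164 were kept in every fit that left out a pool, the others being Adgre1, Cx3cr1, Cyp2s1, Irs2, Nfe2, Rpl3 and Tlr9. Normexp lost 52 of the 171 named calls, those of Abcb10, Adgre1, Adgrg7, Apob, Bhlhe41, Ccne2, Cd22, Cd3e, Cd8a, Cx3cr1, Cxcr5, Dbp, Elane, Esam, F13a1, Hamp, Hmgcs1, Hmox1, Insig1, Irs2, Kdr, Klf9, Lbp, Lef1, Ltc4s, Mb, Mcpt8, Mcpt8l3, Mt2A, Mvk, Nfe2, Pcna, Pecam1, Pfkp, Pkhd1, Ppard, Prtn3, RatNP-3b, Rpl3, Scap, Serpina3n, Sgk1, Slc25a37, Tcf4, Tgm2, Tinagl1, Tlr9, Tpsb2, Txnrd1, Ucma, Vpreb3 and Zfp474. Genes near background and those with small differences are limited most by the signal over background.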
